A study of Mus musculus with 24 samples.

Results

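The small intestine of 2 inbred mouse strains was compared at the level of steady-state RNA. Duodenum of wild-type C57BL/6 (B6) mice was profiled on 3 arrays and duodenum of wild-type DBA/2 (D2) mice on 3 others, 6 of the 24 arrays of the series, with 1 mouse behind each array. The groups are defined by tissue, strain and genotype alone. All animals were fasted males aged 7 weeks. The B6 and D2 wild-type mice were bought from a breeder. The other groups drawn on here are duodenum of Hfe-/- mice of both strains (3 arrays each, bred in the investigators' own facility) and liver of wild-type mice of both strains (3 arrays each). Hfe-/- mice lack a protein whose loss causes hereditary hemochromatosis. The study used 3 mice per strain and genotype for its arrays, so the liver arrays come from the same 6 wild-type mice and the Hfe-/- arrays from others. Whole duodenum was used, so each value is an average over epithelium, muscle, blood-derived cells and any adherent pancreas.

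The duodenum receives bile and pancreatic juice and is the main site of dietary iron uptake. Its epithelium holds absorptive enterocytes, mucus-secreting goblet cells, hormone-secreting cells and, at the crypt base, stem cells and Paneth cells that release antimicrobial proteins. B6 and D2 are among the oldest inbred strains and differ in the major histocompatibility complex (MHC), in several gene copy numbers and in coding and regulatory sequence throughout the genome. They also differ in how strongly loss of Hfe loads the tissues with iron.

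Each array reports on probe sets, a probe set being a group of short oligonucleotides read as 1 signal. The deposited MAS5 signals had been scaled to a trimmed mean of 100 on every array, with medians of 20.1 to 23.4 on the 12 duodenum arrays. After a filter on signal, 28061 probe sets remained, and each of 13006 genes was represented by 1 of them. Arrays of the same wild-type group correlated at 0.947 to 0.962 on the log2 scale. Enterocyte markers were high on all 6 arrays (villin, Vil1, from 2717 to 3666). The proximal factor Pdx1 gave 314 to 468, whereas the ileal bile acid carrier Slc10a2 stayed at 0.206 to 5.54, the pattern of proximal intestine. Of the hepatocyte markers Alb (4.75 to 21.3) and Apoh (13.2 to 17.9) were near background, whereas Ttr gave 135 to 809. Pancreatic acinar RNA was present and uneven, with Cpa1 between 844 and 6157. None of the 23 acinar genes was called between the strains by limma, and 1, Ctrc, had an unadjusted p under 0.05. Ctrc gave 4325, 2318 and 6136 on the D2 arrays and 147, 78.1 and 15.7 on the B6 arrays. Its signals did not overlap between the strains, at a log2 difference, D2 minus B6, of 6.13 (adjusted p = 0.0215). By gaps in the recorded hybridisation times, the 3 B6 wild-type arrays fell in 1 run and the 3 D2 wild-type arrays in another. Run and strain therefore cannot be told apart within these 6 arrays. Hfe itself gave 76.6 to 105 on the 6 wild-type arrays and 15.7 to 45.1 on the Hfe-/- duodenum arrays.

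The question was which genes the duodenum of the 2 strains expresses at different levels when Hfe is intact. At an adjusted p of at most 0.01 in limma, 946 probe sets were called, or 3.37% of those tested, with 359 higher in D2 (1.28%) and 587 higher in B6 (2.09%). By gene, 433 were called (3.33%), of which 174 were higher in D2 (1.34%) and 259 were higher in B6 (1.99%). Differences were mostly moderate, with a median absolute log2 difference of 1.08 over the called genes and 244 genes at or beyond 2-fold (1.88%). Over all 13006 genes the median log2 difference, D2 minus B6, was 0.0084. All log2 differences below run in that direction, so that a negative value means higher in B6. The arrays of the strains did not overlap for 2967 genes (22.8%), and every gene described below as higher in 1 strain was among them. With 3 mice in each group a single gene cannot reach an exact permutation p below 0.1, which is why the moderated test across all probe sets was used.

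Among called genes with a mean signal of 100 or more in the higher strain, the largest differences with D2 higher were led by a secreted enzyme of the crypt. Pla2g2a, the group IIA phospholipase A2 that Paneth cells release against bacteria and which B6 mice carry in a naturally disrupted form, gave 4915, 2435 and 1993 on the D2 arrays and 64.3, 77.3 and 87.9 on the B6 arrays. Every D2 signal was far above every B6 signal, and the log2 difference was 5.25 (SE 0.64, adjusted p = 0.000194). In Hfe-/- duodenum 2 of the 3 D2 arrays gave lower signals (3171, 491 and 289.7) but the difference had the same direction, 3.06 (adjusted p = 0.00987). Of the other 21 measured members of the Paneth cell and antimicrobial list none was called, and the median of the list was 0.11. Of the Paneth cell markers, the lysozyme Lyz1 ranged from 7001 to 9805 over the 6 arrays, at a difference of 0.16. Itln1 (-0.67), Ang4 (-0.65) and Mmp7 (-0.28) had negative values without a call (adjusted p = 0.544, 0.429 and 0.818). On the D2 Hfe-/- arrays Itln1 gave 2493, 623 and 420, so it too was low on arrays 2 and 3. The part of Paneth cell content in these values was not tested.

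Several of the other leading D2 genes had a near-empty B6 side. Tmem87a, a Golgi membrane protein, gave 188, 249.5 and 199 in D2 and 6.26, 3.54 and 8.93 in B6. All 3 B6 signals lay below 20, the level used as the filter, so the log2 difference of 5.18 (SE 0.42, adjusted p = 5.98e-06) rests on a poorly defined lower value. Ubd, a ubiquitin-like modifier induced by interferon and tumour necrosis factor, gave 388, 139 and 545 in D2 and 17.4, 33.98 and 18.6 in B6, a log2 difference of 3.80 (SE 0.70, adjusted p = 0.0047). The D2 mice varied widely among themselves, and the call was lost when any of 5 of the 6 arrays was left out, at an adjusted p of up to 0.0254. In Hfe-/- duodenum the Ubd difference was -0.93 (adjusted p = 0.51), where the second B6 array was the high one (42.3, 392 and 48.9 in B6).

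Ap1s3, a small subunit of the AP-1 clathrin adaptor, gave 548, 548 and 731 in D2 and 46.3, 52.97 and 72.8 in B6. All D2 signals lay well above the B6 signals, with a log2 difference of 3.42 (SE 0.21, adjusted p = 6.47e-07). Hddc3, a metal-dependent hydrolase, gave 307, 252 and 224 in D2 and 20, 22.03 and 31.7 in B6, a difference of 3.43 (SE 0.20, adjusted p = 3.74e-07). A further probe set of Hddc3 showed a smaller, positive difference of 0.54. Rbm45, an RNA-binding protein, gave 414, 405 and 433 in D2 and 78.1, 28.8 and 52.5 in B6, a difference of 3.09 (SE 0.25, adjusted p = 6.89e-06). Both genes were called in the Hfe-/- mice as well, at 3.53 (adjusted p = 3.15e-07) for Hddc3 and 2.75 (adjusted p = 2.11e-05) for Rbm45.

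Pam, the enzyme that amidates peptide hormones, gave 145, 562 and 127 in D2 and 28.1, 19.3 and 32.9 in B6. One D2 mouse stood well above the rest, but all 3 exceeded the B6 mice, and the difference was 3.06 (SE 0.48, adjusted p = 0.0013). BC064078, a gene known here only by its clone name, gave 147, 125 and 105 in D2 and 8.41, 21.98 and 20.6 in B6, a difference of 2.99 (SE 0.31, adjusted p = 4.92e-05). Stab2, a scavenger receptor for hyaluronan on sinusoidal and lymphatic endothelium, gave 102, 181 and 76.6 in D2 and 20.6, 9.07 and 18.5 in B6, a difference of 2.89 (SE 0.46, adjusted p = 0.0016). By these probe sets Pam, BC064078 and Stab2 were not called in Hfe-/- duodenum. The differences there were 2.01 (adjusted p = 0.02), 1.12 (adjusted p = 0.0437) and 1.36 (adjusted p = 0.101) respectively. A further probe set of BC064078 gave 2.97 (adjusted p = 0.000216) in wild-type and 2.83 in Hfe-/- duodenum.

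**Figure D1:**
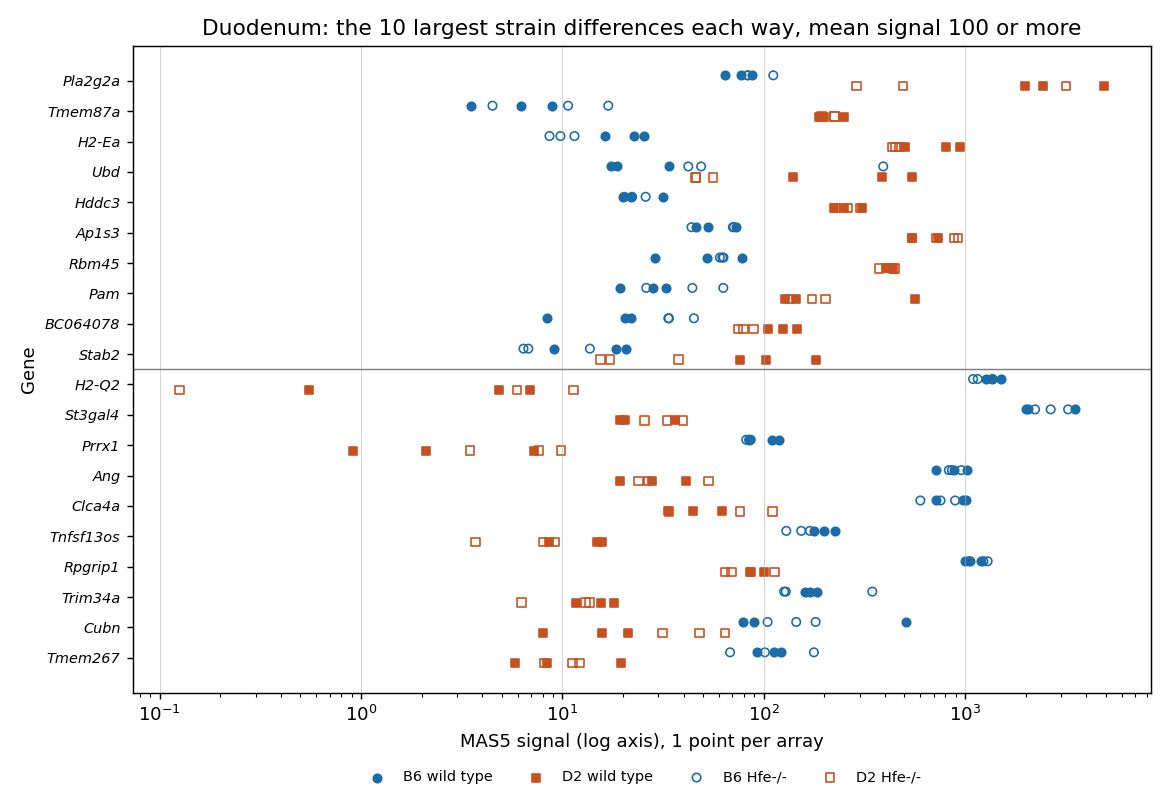
MAS5 signal (log axis) of the 10 called genes with the largest difference in each direction and a mean of 100 or more in the higher strain, with filled symbols for the 6 wild-type arrays and open symbols for the 6 Hfe-/- arrays. For all 20 genes the filled D2 squares and B6 circles do not overlap, and Ubd is the gene in which an open B6 circle lies among the D2 wild-type values.

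The leading genes higher in B6, under the same condition on signal, included an enzyme of the Golgi and secreted proteins. St3gal4, a Golgi sialyltransferase that caps the sugar chains of glycoproteins, gave 3518, 2063 and 1999.7 in B6 and 36.4, 20.5 and 19.3 in D2. The lowest B6 signal was far above the highest D2 signal, at a log2 difference of -6.65 (SE 0.27, adjusted p = 2.20e-08). Ang, a secreted ribonuclease with antimicrobial relatives, gave 1024, 881 and 721 in B6 and 41.1, 19.2 and 27.8 in D2, a difference of -4.95 (SE 0.30, adjusted p = 5.25e-07). Its family is closely related in sequence, and its further probe sets gave -2.56 (adjusted p = 1.85e-06) and -0.18 (adjusted p = 0.566), so the identity of the transcript behind the value is uncertain. Clca4a, a surface and secreted protein of the CLCA family, gave 974, 1012 and 719 in B6 and 33.6, 44.6 and 62.3 in D2, a difference of -4.30 (SE 0.35, adjusted p = 6.51e-06). All 3 were called in Hfe-/- duodenum too, at -6.37 (adjusted p = 3.17e-08), -4.77 (adjusted p = 6.97e-07) and -3.49 (adjusted p = 4.20e-05).

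The remaining leading B6 genes were of varied function. Prrx1, a mesenchymal homeobox factor, gave 119, 84.8 and 110.3 in B6 and 7.22, 0.910 and 2.09 in D2, a difference of -5.43 (SE 0.60, adjusted p = 8.57e-05). Rpgrip1, known as a ciliary scaffold of photoreceptors, gave 1062, 1199 and 1001 in B6 and 100.9, 85.99 and 86.96 in D2, a difference of -3.57 (SE 0.18, adjusted p = 1.02e-07). Here the D2 signals were clearly above background, unlike those of Prrx1. Cubn, the enterocyte receptor that takes up vitamin B12 bound to intrinsic factor, gave 509, 79.3 and 89.6 in B6 and 15.7, 8.05 and 21.3 in D2, a difference of -3.46 (SE 0.59, adjusted p = 0.00262). One B6 mouse was far above the rest, and the call was lost without D2 array 1 (adjusted p = 0.0106) or D2 array 2 (adjusted p = 0.0133). Tmem267, a membrane protein of unsettled role, gave 122, 112 and 92.4 in B6 and 5.83, 8.42 and 19.7 in D2, a difference of -3.45 (SE 0.42, adjusted p = 0.000192). Tnfsf13os, a transcript from the strand opposite the cytokine gene Tnfsf13, gave 227, 199.6 and 178 in B6 and 15.7, 14.8 and 8.58 in D2, a difference of -3.99 (SE 0.33, adjusted p = 6.51e-06). The probe set for Tnfsf13os overlaps a locus with genes on both strands, and which of them it reads was not tested.

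Genes of the MHC differed in both directions. The class II molecule presents peptides to helper T cells, and its alpha chain gene H2-Ea is known not to be transcribed in the haplotype that B6 carries. H2-Ea gave 806, 504 and 941 in D2 and 16.2, 22.8 and 25.3 in B6, a difference of 5.10 (SE 0.22, adjusted p = 3.62e-08). Among class I genes, H2-Q2 was high in B6 (1365, 1512 and 1272) and below 20 in all D2 mice (6.92, 0.550 and 4.85), with a difference of -9.03 (SE 1.31, adjusted p = 0.000747). H2-T3, the thymus leukaemia antigen, which is a nonclassical class I molecule of intestinal epithelium, was high in D2 (936, 706 and 1083) and lower in B6 (187, 167 and 152), with a difference of 2.41 (SE 0.16, adjusted p = 1.14e-06). Class I genes are near-identical in sequence and highly polymorphic, and the 8 measured probe sets of H2-D1 ran from -0.76 to 10.23, so these values cannot be assigned to a single gene or read as amounts of protein. Of the 32 measured genes of the MHC and antigen presentation list, 3 were higher in D2 and 1 in B6. The third D2 gene was H2-D1 by its brightest probe set, at 0.68 (SE 0.10, adjusted p = 0.000706). The median of the list was 0.52 in wild-type mice but -0.30 in Hfe-/- mice, while H2-Ea and H2-Q2 were called there in the same direction, at 5.52 (adjusted p = 2.38e-08) and -9.20 (adjusted p = 0.000654).

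Interferon-stimulated genes are the antiviral set that type I and type III interferons switch on through a shared promoter element. Of 41 measured members none was higher in D2 and 3 were higher in B6, namely Trim34a, Trim30d and Xaf1. The first 2 are antiviral or inflammasome-related ubiquitin ligases of the TRIM family on chromosome 7, and Xaf1 is an antagonist of the apoptosis inhibitor XIAP on chromosome 11. The promoter windows of the 2 TRIM genes are shown because they carry the letters of the interferon-stimulated response element (GAAA, any 2 bases, then GAAA, on either strand), here in capitals. They are the RefSeq reference sequence of build GRCm38.p6, not the D2 sequence, written 5′ to 3′ on the strand of the gene, from 250 bases before the start to 25 bases after it. For Trim34a the window is chr7:104244207-104244481 on the plus strand, and for Trim30d it is chr7:104507825-104508099 on the minus strand.
Trim34a: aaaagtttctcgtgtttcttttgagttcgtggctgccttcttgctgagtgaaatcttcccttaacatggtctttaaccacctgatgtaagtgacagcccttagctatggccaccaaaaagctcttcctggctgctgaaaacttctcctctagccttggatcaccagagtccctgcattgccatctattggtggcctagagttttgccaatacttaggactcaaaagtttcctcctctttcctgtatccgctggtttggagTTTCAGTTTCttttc
Trim30d: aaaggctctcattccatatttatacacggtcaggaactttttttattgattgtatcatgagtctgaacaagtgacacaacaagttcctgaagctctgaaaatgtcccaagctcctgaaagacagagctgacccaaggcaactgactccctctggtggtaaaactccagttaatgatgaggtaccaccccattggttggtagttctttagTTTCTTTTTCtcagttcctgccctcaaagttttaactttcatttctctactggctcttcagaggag
The match lay 10 bases after the start in Trim34a and 41 bases before it in Trim30d, and both read on the opposite strand. In the full windows of 300 bases no match was found for Xaf1. Of all 27025 genes with a window 3.99% held the letters in at least 1 window, against 19 of the 28 interferon-list genes with a window (67.9%). A match is a description of these letters and does not show a site in use.

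Trim34a gave 184, 169.8 and 159.8 in B6 and 11.7, 15.6 and 18.2 in D2, a difference of -3.52 (SE 0.38, adjusted p = 7.66e-05). All D2 signals were below 20, yet a further probe set of the gene pointed the other way (1.56, adjusted p = 0.081). Trim30d gave 725, 455 and 469 in B6 and 212, 68.2 and 152 in D2, a difference of -2.05 (SE 0.35, adjusted p = 0.00271), which was lost without B6 array 1 (adjusted p = 0.016). Xaf1 gave 266, 219 and 181 in B6 and 77.2, 51.3 and 48.6 in D2, a difference of -1.93 (SE 0.35, adjusted p = 0.00411). Its call was lost when any of 5 of the 6 arrays was left out (adjusted p up to 0.0217), and another Xaf1 probe set was far higher in D2, at 5.88. Both TRIM genes belong to clusters of close copies, so a probe set may read more than its named gene.

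The remaining 38 interferon-stimulated genes were not called, and single arrays stood out in their level. The median log2 difference of the list was 0.58 and 33 of the 41 values were positive, but with the hybridisation run as a block the median was -0.13 and none of the 3 calls was kept. The mean log2 signal of the list was 8.13 on D2 array 1, against 7.38 and 7.22 on the other D2 arrays and 7.24, 7.18 and 7.09 on the B6 arrays. Among the Hfe-/- arrays it was B6 array 2 that stood out, at 8.62, against 6.85 and 6.76 on the other B6 arrays and 6.66, 6.52 and 6.49 on the D2 arrays. There the median of the list was -0.70, opposite to the wild-type mice. The run effect in the block fit rests on B6 Hfe-/- array 1 against B6 Hfe-/- arrays 2 and 3. It therefore takes in the high array 2, and the median of -0.13 cannot separate the run from that 1 array. With D2 wild-type array 1 left out, the median of the wild-type list was 0.32 and the difference of Ubd was 3.63 (adjusted p = 0.0254), while the calls for Trim34a, Trim30d and Xaf1 were kept.

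The Ifi200 genes on chromosome 1 encode DNA sensors and their regulators in a cluster that varies in gene content between strains. Ifi202b, which B6 mice are known not to express, gave 109, 59.7 and 47.6 in D2 and 1.10, 0.955 and 1.04 in B6, a difference of 6.03 (SE 0.69, adjusted p = 0.000122). It is not among the leading genes above because its mean signal in D2 was below 100. Mndal was the reverse, at 162, 135 and 118 in B6 and 12.4, 20.01 and 15.1 in D2, a difference of -3.14 (SE 0.26, adjusted p = 6.73e-06). A second probe set of Mndal gave -8.18. The other 5 measured members were not called. Both differences had the same direction in Hfe-/- mice, 5.10 (adjusted p = 0.000454) for Ifi202b and -3.22 (adjusted p = 6.15e-06) for Mndal.

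**Figure D2:**
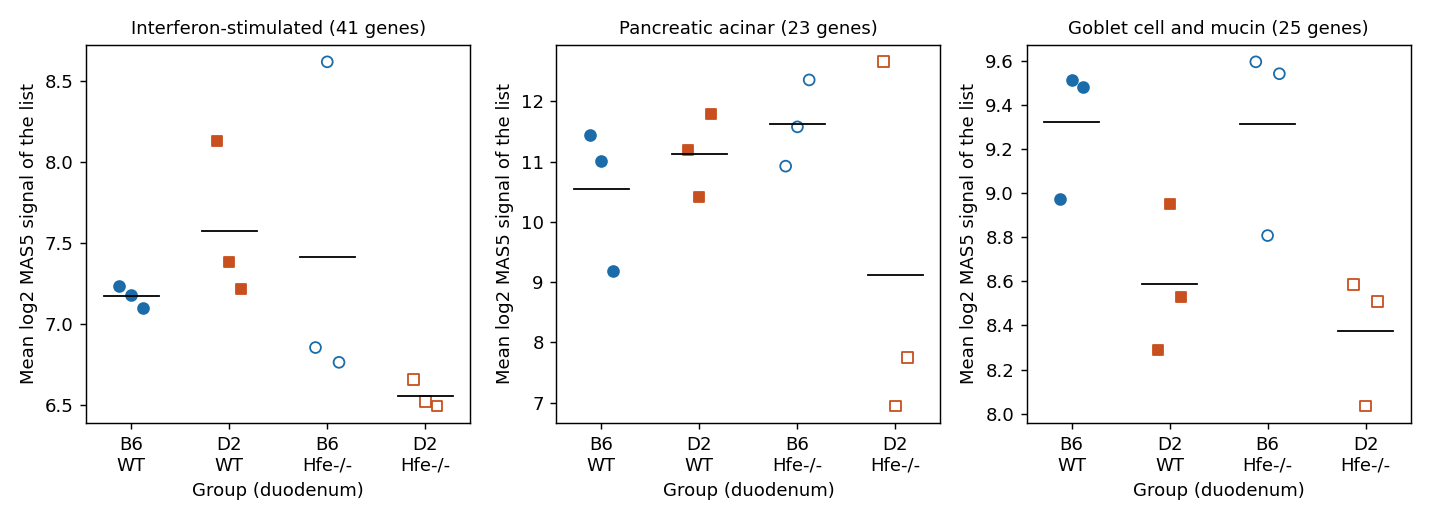
Mean log2 MAS5 signal of the interferon-stimulated, pancreatic acinar and goblet cell lists on each of the 12 duodenum arrays, with the group mean as a line. The interferon list is highest on 1 D2 wild-type and 1 B6 Hfe-/- array, and the acinar list falls to 6.94 and 7.74 on 2 of the 3 D2 Hfe-/- arrays.

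Goblet cells secrete the gel-forming mucin Muc2, whereas Muc3 and Muc4 are membrane mucins of the epithelial glycocalyx. Of the 25 measured genes of the goblet cell and mucin list, 5 were higher in B6 (Ang, Clca4a, Klf4, Muc3 and Muc4) and none in D2, with a list median of -0.16 (0.009 without D2 array 1 and 0.06 with the run as a block, where the calls for Klf4, Muc3 and Muc4 were lost). Muc3 gave 6332, 5072 and 4611 in B6 and 1539, 1209 and 812 in D2, a difference of -2.21 (SE 0.27, adjusted p = 0.000194). Muc4 gave 140.2, 234 and 193 in B6 and 45.02, 88.9 and 41.4 in D2, a difference of -1.75 (SE 0.28, adjusted p = 0.00161), which was lost without any 1 of B6 array 2, B6 array 3 or D2 array 1 (adjusted p up to 0.011). Klf4, a transcription factor needed for goblet cell maturation, differed by -0.86 (SE 0.10, adjusted p = 9.37e-05), although its other probe set missed the threshold (-0.35, adjusted p = 0.11). The defining goblet markers Muc2 (2290 to 3045 over the 6 arrays), Tff3, Fcgbp and Clca1 were not called. The mean log2 signal of the whole list was 8.97, 9.51 and 9.48 on the B6 arrays and 8.29, 8.95 and 8.53 on the D2 arrays. Tff2, a peptide of Brunner glands, gave 603, 7241 and 6827 in B6 and 234, 8297 and 438 in D2, and the secretory cell protein Agr2 gave 676, 4377 and 3569 in B6 and 1204, 4698 and 900.1 in D2. B6 array 1 and D2 arrays 1 and 3 were low in both, neither gene was called (adjusted p = 0.752 and 0.864), and the part of such glandular tissue in the goblet list values was not tested. In whole tissue, fewer cells of a type and less RNA per cell cannot be told apart. The list again held 5 genes higher in B6 and none in D2 in Hfe-/- duodenum, where 1.84% and 1.95% of all genes were called in these directions. Muc3, however, differed there by -0.56 (adjusted p = 0.262), and the difference between the genotypes was 1.65 (adjusted p = 0.232).

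Guanylin and its receptor, which set chloride and water secretion in the gut, were both higher in D2. Guca2a, the guanylin precursor, gave 816, 493 and 864 in D2 and 330.0, 170.1 and 207 in B6, a difference of 1.63 (SE 0.24, adjusted p = 0.000733). Gucy2c, the receptor guanylyl cyclase C, gave 894, 794 and 1011 in D2 and 437, 386 and 481 in B6, a difference of 1.05 (SE 0.11, adjusted p = 6.53e-05). In Hfe-/- mice the receptor was called again (1.17, adjusted p = 2.79e-05) and the ligand was not (0.87, adjusted p = 0.0416).

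None of the 31 measured genes of iron absorption, storage and control was called between the wild-type strains by its brightest probe set, and 12 of the values were positive and 19 negative. At an unadjusted p under 0.05 there were 8 such genes in limma, against 2350 of the 13006 genes of the comparison. Cybrd1, the duodenal ferric reductase, gave 221, 326 and 253 in D2 and 216, 571 and 549 in B6. The ranges overlapped, and the difference was -0.63 (SE 0.50, adjusted p = 0.575), or 0.63 with the hybridisation run as a block. Hfe-/- mice gave 1.97 (adjusted p = 0.0295) for Cybrd1. Ireb2, one of the iron regulatory proteins, gave 569.7, 640.0 and 619 in D2 and 879, 917 and 892 in B6, a difference of -0.56 (SE 0.13, adjusted p = 0.0198). Slc40a1, the basolateral iron exporter ferroportin, differed by -0.36 (SE 0.11, adjusted p = 0.0665), and its further probe set by 0.08 (adjusted p = 0.81). Heph, the ferroxidase that works beside it, differed by -0.42 (SE 0.11, adjusted p = 0.0448). The ranges of Ireb2, Slc40a1 and Heph, by their brightest probe sets, did not overlap between the strains, but their adjusted p-values missed the threshold. Tfrc, the transferrin receptor, differed by 0.17 (SE 0.19, adjusted p = 0.705), and Slc39a14, a transporter of zinc and iron, by -0.20 (SE 0.13, adjusted p = 0.469). Smad4, a transcription factor of the pathway that controls hepcidin, gave -0.07 (SE 0.08, adjusted p = 0.688) by its brightest probe set and 0.19 (adjusted p = 0.191) by another. The remaining Smad4 probe set was called with B6 higher, at -0.96 (SE 0.12, adjusted p = 0.000218) and mean signals of 306 in D2 and 593 in B6. That probe set gave -0.99 (adjusted p = 0.000174) in Hfe-/- duodenum and -0.85 (adjusted p = 0.000679) in liver. For Hfe the difference was 0.16 (adjusted p = 0.784).

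Alad, singled out after its value was seen, is the enzyme that joins 2 molecules of aminolevulinic acid in the heme pathway and whose gene is known to be duplicated in DBA/2 mice. It gave 1146, 941 and 1138 in D2 and 300.5, 249 and 259 in B6. The D2 signals were all several times the B6 signals, at a log2 difference of 2.00 (SE 0.12, adjusted p = 4.81e-07). A second probe set gave 1.95, and Hfe-/- duodenum gave 2.02 (adjusted p = 3.85e-07). Glo1, the glyoxalase that detoxifies methylglyoxal and another gene known to be duplicated in DBA/2, gave 1657, 1697 and 1649 in D2 and 782, 836 and 769 in B6, a difference of 1.07 (SE 0.07, adjusted p = 1.64e-06). All 4 probe sets of Glo1 were called in that direction, from 0.78 to 1.26. Nnt, the mitochondrial transhydrogenase, of which a partial deletion is known in some C57BL/6 mice, differed by 1.48 (SE 0.20, adjusted p = 0.000472). Of the 9 measured genes of the list known to differ in sequence or copy number between the strains, 4 were higher in D2 (Glo1, Ifi202b, Nnt and Pla2g2a) and none in B6. That list was drawn up from such strain knowledge and is no independent evidence of direction.

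The zinc and copper list held 1 call, where over all genes 3.33% were called. Slc30a2, a zinc exporter of secretory vesicles, was higher in B6, with a difference of -1.15 (SE 0.19, adjusted p = 0.00201), and was the only 1 of 16 called (not called without D2 array 1, adjusted p = 0.0129, or D2 array 2, adjusted p = 0.0108). Slc39a4, the apical zinc importer of the enterocyte, differed by 0.26 (SE 0.12, adjusted p = 0.299) in wild-type mice and by 0.74 (adjusted p = 0.00222) in Hfe-/- mice. The copper importer Slc31a1 differed by -0.27 (SE 0.13, adjusted p = 0.294) and the vitamin C transporter Slc23a2 by -0.14 (SE 0.14, adjusted p = 0.667).

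Genes of lipid handling were called in both directions, where over all genes 1.34% were higher in D2 and 1.99% in B6. Of 30 measured genes of lipid absorption and lipoprotein assembly, 2 were higher in D2 and 1 in B6, with a median of 0.06 (-0.08 with the run as a block). Cd36, a fatty acid translocase of the brush border, gave 625, 459 and 753 in D2 and 258, 150.2 and 146 in B6, a difference of 1.75 (SE 0.27, adjusted p = 0.00138). The lowest D2 mouse was above the highest B6 mouse, and the 2 further probe sets were positive without a call (1.32 and 0.78). The call was lost without B6 array 3 (adjusted p = 0.0103). Retsat, which saturates retinol, differed by 0.53 (SE 0.10, adjusted p = 0.00474) and was not called without any 1 of 5 of the 6 arrays (adjusted p up to 0.0274). Mogat2, the acyltransferase that rebuilds diacylglycerol in the enterocyte, gave 1917, 1633 and 1730.0 in B6 and 934, 789 and 1065 in D2, a difference of -0.93 (SE 0.11, adjusted p = 0.000176). Lpl, the lipase of capillary walls and the only 1 of 6 measured adipocyte-list genes called, differed by 1.37 (SE 0.26, adjusted p = 0.00658), and its call was lost when any 1 of the 6 arrays was left out (adjusted p up to 0.0376).

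Of 27 genes of fatty acid oxidation and ketogenesis 2 were higher in D2 and none in B6, with a median of 0.19 and 23 positive values. In these directions 1.34% and 1.99% of all genes were called. Acadl, the long-chain acyl-CoA dehydrogenase, gave 3209.6, 2620.4 and 2742 in D2 and 1335, 1502 and 1520.4 in B6, a difference of 0.97 (SE 0.13, adjusted p = 0.000346). Ppara, the nuclear receptor for fatty acids, differed by 1.07 (SE 0.18, adjusted p = 0.0028), but another of its probe sets was called in the other direction (-0.92, adjusted p = 0.0063), and its call was lost without any 1 of 5 arrays (adjusted p up to 0.0185). Of 17 genes of cholesterol synthesis 1 was called on each side. Nsdhl, a sterol dehydrogenase, differed by 0.61 (SE 0.13, adjusted p = 0.00985), a call lost without any 1 of the 6 arrays (adjusted p up to 0.0488). Sc5d, the lathosterol desaturase, differed by -1.70 (SE 0.11, adjusted p = 1.41e-06), whereas its 2 further probe sets gave -0.03 and 0.07.

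Glutathione S-transferases couple reactive compounds to glutathione. Of 21 measured glutathione S-transferases, 3 were higher in D2 (Gsta2, Gstp3 and Mgst1) and none in B6, and the median was 0.38. With the run as a block the median was 0.096 and all 3 calls were lost. Gsta2 gave 484, 1069 and 968 in D2 and 149, 275 and 252 in B6, a difference of 1.86 (SE 0.32, adjusted p = 0.00269). The call for Gsta2 was lost without B6 array 1, D2 array 2 or D2 array 3 (adjusted p up to 0.0147). Gstp3 differed by 1.11 (SE 0.17, adjusted p = 0.00113) and Mgst1, a membrane-bound member, by 0.56 (SE 0.08, adjusted p = 0.000498). The median of the list was 0.23 in Hfe-/- duodenum, and Gsta2 was called there (1.85, adjusted p = 0.00274). Many of these enzymes are encoded in clusters of close copies, so a probe set can read more than its named gene.

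Other detoxification lists held calls in both directions, where over all genes 3.33% were called. Cyp3a13 was the only 1 of 47 cytochromes P450, at 6072, 5441 and 5111 in B6 and 2196, 2218 and 3693 in D2, a difference of -1.08 (SE 0.17, adjusted p = 0.00125). Among 43 carboxylesterases, aldehyde dehydrogenases and aldo-keto reductases, Ces1g was higher in D2 by 1.72 (SE 0.22, adjusted p = 0.000328). Aldh9a1 and Aldh1a3, which makes retinoic acid, were higher in B6, at -0.81 (adjusted p = 7.55e-05) and -0.95 (adjusted p = 0.000532). Ugt2b5, a glucuronosyltransferase from a family of close copies, was the only 1 of 17 in its list, at 0.96 (SE 0.19, adjusted p = 0.00675), and was not called without any 1 of 5 of the arrays (adjusted p up to 0.0313). Of 22 NRF2 targets and glutathione genes, Glo1 and the regulator Nfe2l2 itself (0.72, adjusted p = 0.000813) were higher in D2. Abcc2, the apical exporter of glutathione and glucuronide conjugates, was higher in B6, at 747, 746 and 930.0 in B6 and 204, 303 and 315 in D2, a difference of -1.58 (SE 0.19, adjusted p = 0.000201). The Abcc2 difference had the same size in Hfe-/- mice, -1.59 (adjusted p = 0.000193).

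Genes for 4 alcohol dehydrogenases that lie together on chromosome 3 were called, and were singled out after their values were seen. Adh4 gave 865, 623 and 891 in D2 and 435, 289 and 326 in B6, a difference of 1.18 (SE 0.19, adjusted p = 0.00142). Adh6a was the reverse, at 4656, 3032 and 3261 in B6 and 1596, 936 and 1474 in D2, a difference of -1.46 (SE 0.19, adjusted p = 0.000335). Adh1, which oxidises ethanol and retinol, and Adh5, the glutathione-dependent formaldehyde dehydrogenase, were higher in D2 by smaller amounts, 0.51 (adjusted p = 0.00136) and 0.60 (adjusted p = 0.000648). Of the 4, 3 were higher in D2 and 1 in B6.

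Of 18 circadian clock genes 1 was called on each side. Dbp, a clock output factor, gave 245, 203 and 431 in D2 and 67.5, 65.6 and 79.01 in B6, a difference of 1.98 (SE 0.24, adjusted p = 0.000216), and a second probe set gave 2.02. Arntl, the core activator BMAL1, gave 79.6, 86.4 and 88.2 in D2 and 164, 152 and 135 in B6, a difference of -0.82 (SE 0.12, adjusted p = 0.00103). Neither was called in Hfe-/- duodenum, where the differences were 0.44 (adjusted p = 0.34) for Dbp and 0.01 (adjusted p = 0.981) for Arntl. The difference between the genotypes was -1.54 (adjusted p = 0.227) for Dbp.

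**Figure D3:**
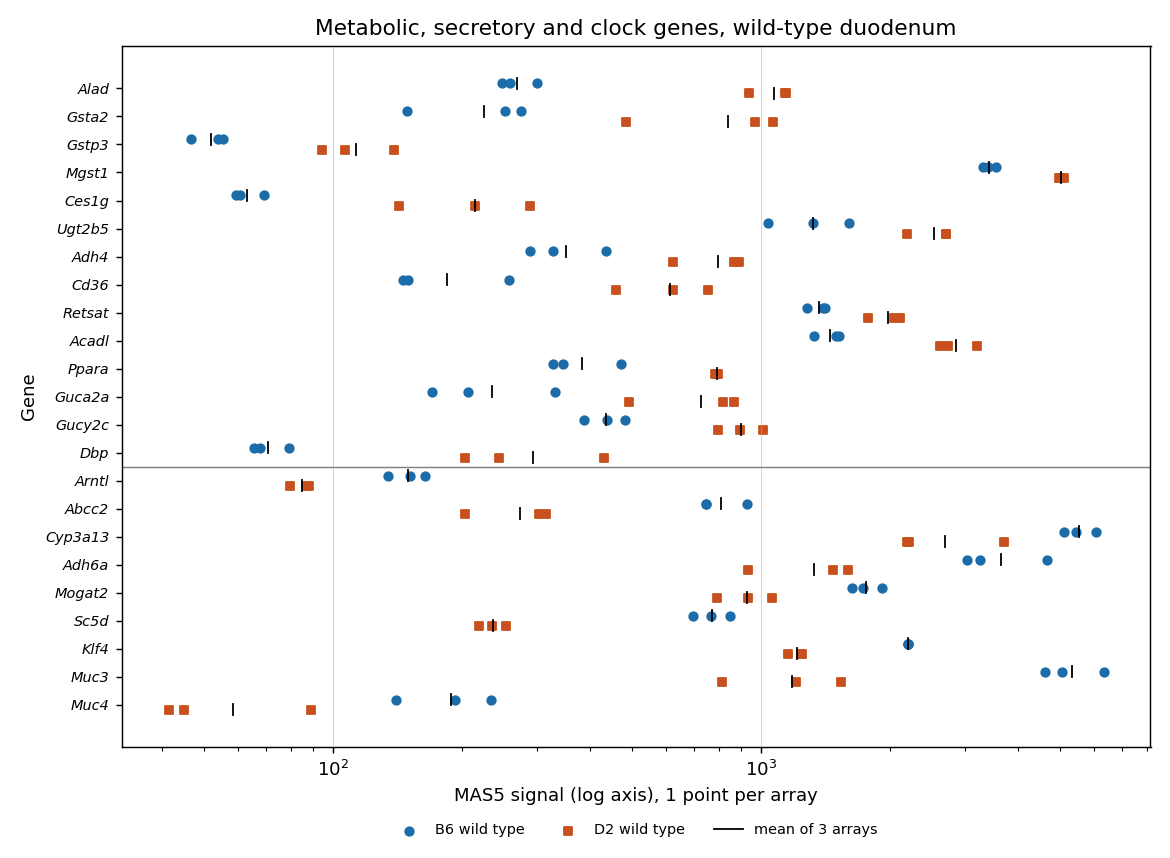
MAS5 signal (log axis) of 23 named metabolic, secretory and clock genes on the 6 wild-type duodenum arrays, with a bar at the mean of each 3 arrays. In the upper block the D2 squares lie above the B6 circles and in the lower block below them, without overlap in any row.

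Of the 43 measured cytosolic ribosomal protein genes 38 had positive values and 29 an unadjusted p under 0.05 in limma, against 2350 of all 13006 genes, but only 4 were called. The median of the list was 0.20, or 0.25 with the run as a block, and 0.02 in Hfe-/- duodenum. Rpl14 (1.80, adjusted p = 1.86e-05) and Rpsa (0.37, adjusted p = 0.00473) were higher in D2, and Rps4l (-1.19, adjusted p = 5.82e-05) and Rps6 (-1.30, adjusted p = 6.06e-05) were higher in B6. Ribosomal protein genes have many processed copies, and their reading by single probe sets is uncertain. Of 78 genes of oxidative phosphorylation, Cox7a2l, a factor of respiratory supercomplex assembly, was higher in D2 (0.43, adjusted p = 0.00512). Ndufa12 (-0.91, adjusted p = 9.15e-06) and Ndufa3 (-0.37, adjusted p = 0.00879), subunits of complex I, were higher in B6 by their brightest probe sets. Further probe sets of Ndufa12 gave -0.42 (adjusted p = 0.00383), -0.12 (adjusted p = 0.844) and 0.18 (adjusted p = 0.654). Rpsa, Cox7a2l and Ndufa3 differed little and were not called without any 1 of the 6 arrays (adjusted p up to 0.0213, 0.0286 and 0.0417). Pttg1, the securin that holds sister chromatids together, was the only 1 of 31 cell cycle genes called, at -0.55 (SE 0.09, adjusted p = 0.0014), whereas its further probe sets gave 0.48 (adjusted p = 0.0467) and -0.0043.

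In the lists of other cell types the calls were single genes. Ccl9, a chemokine, was the only 1 of 23 macrophage and granulocyte genes, higher in B6, with a difference of -1.52 (SE 0.20, adjusted p = 0.000377). Synpo2, an actin-binding protein of smooth muscle, was the only 1 of 26 stromal genes, at -0.75 (SE 0.15, adjusted p = 0.00813), and lost its call without any 1 of the 6 arrays (adjusted p up to 0.0395). Serpina1b, a member of the near-identical alpha-1-antitrypsin family, was the only 1 of 14 hepatocyte genes, at 2.84 (SE 0.40, adjusted p = 0.000569), where the summed signal of the list ran from 3428 to 4635 over the 6 arrays. Neat1, a nuclear long noncoding RNA, was the only 1 of 26 immediate early and stress genes, at -1.58 (SE 0.20, adjusted p = 0.000263), and a further probe set gave -0.25. No gene was called among 22 brush border hydrolases, 23 sugar, peptide and amino acid transporters, 23 enteroendocrine, 18 stem cell, 17 B cell, 28 T and NK cell, 10 neuronal or 4 red cell genes. At an unadjusted p under 0.05 in limma, these lists held 5, 5, 6, 4, 2, 6, 0 and 0 genes in that order. The medians of these lists lay between -0.33, for the enteroendocrine list, and 0.26, for the B cell list.

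**Figure D4:**
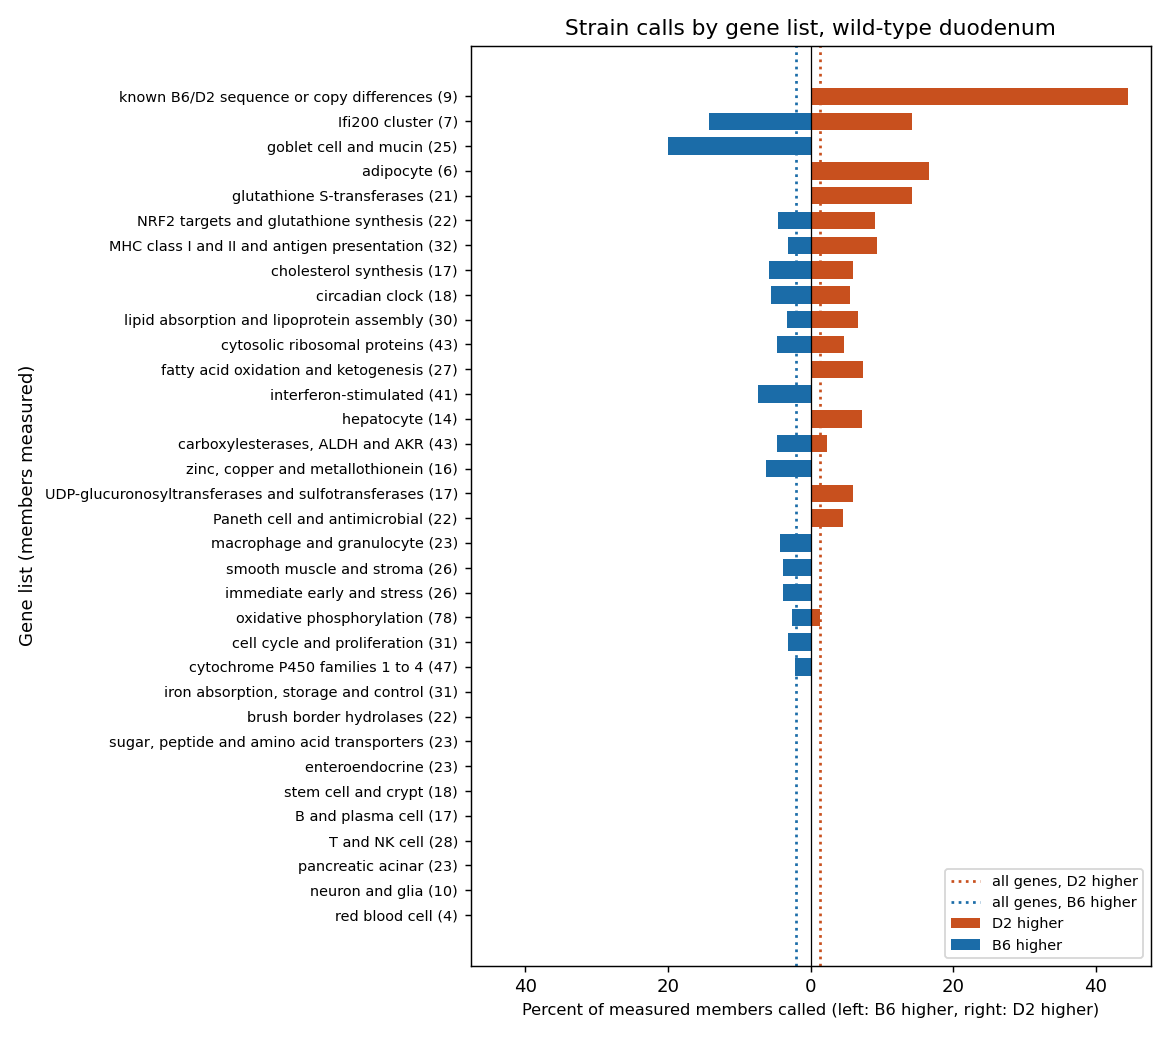
Percentage of the measured members of each of 34 gene lists called in wild-type duodenum, B6 higher to the left and D2 higher to the right, with dotted lines at the percentages over all genes (1.99 and 1.34). The goblet cell and mucin list has its 5 calls of 25 all on the B6 side, the glutathione S-transferases their 3 calls of 21 on the D2 side, and 10 lists have none.

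The same strain contrast was available in Hfe-/- duodenum from other mice. There 1025 probe sets were called (3.65%), and by gene 492 (3.78%). Of the 433 genes called in wild-type mice, 426 had the same sign in Hfe-/- mice (98.4%) and 270 were called in the same direction, which is 62.4% of the wild-type calls and 54.9% of the Hfe-/- calls. None was called in the opposite direction. The D2 Hfe-/- arrays 2 and 3 stood apart in acinar RNA, with a mean log2 signal of the acinar list of 6.94 and 7.74 against 12.7 on D2 Hfe-/- array 1 and 10.9 to 12.4 on the B6 Hfe-/- arrays. The wild-type arrays ranged from 9.18 to 11.8. Without these 2 arrays in the fit, 808 probe sets were called between the wild-type strains. The Hfe-/- contrast held 650 called probe sets without D2 array 2, 648 without D2 array 3 and 650 with the acinar level as a covariate, while the wild-type contrast held 931 with that covariate.

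The Hfe-/- arrays also allowed the strains to be set side by side within 1 hybridisation run. The 3 D2 Hfe-/- arrays and 2 of the 3 B6 Hfe-/- arrays shared a run with the D2 wild-type arrays. These D2 arrays were on fluidics station 2 and these B6 arrays on station 1, so station and strain cannot be told apart in this contrast. In that contrast 362 genes were called (2.78%). The sign was that of the wild-type contrast for 428 of the 433 genes, and 227 of them were called (52.4%). With the run as a block across the 12 duodenum arrays, all 433 genes kept their sign and their median absolute difference was 1.12, but only 45 were called. In that fit the run effect is carried by 1 array of the earlier run against 2 of the later one within a single group. For Muc3, Dbp, Stab2 and Ubd, called in wild-type mice, the contrast within 1 run gave no call, at -0.55 (adjusted p = 0.382), 0.53 (adjusted p = 0.344), 1.71 (adjusted p = 0.0642) and -1.50 (adjusted p = 0.294).

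One probe set of 28061 (0.00356%) differed between the genotypes in its strain contrast at the threshold, and 2930 did at an unadjusted p under 0.05. It reads Atxn1, a transcriptional co-repressor, and gave 261, 189 and 197 in B6 wild-type, 45.7, 39.2 and 47.1 in D2 wild-type, 254, 197 and 212 in B6 Hfe-/- and 211, 227 and 250 in D2 Hfe-/- mice. Only the D2 wild-type mice were low. The strain difference was -2.28 (adjusted p = 9.51e-07) in wild-type mice and 0.06 in Hfe-/- mice, and the change between them was 2.34 (adjusted p = 0.00145). In wild-type liver the strain difference of this probe set was -2.55. Atxn1 lies on chromosome 13, as Hfe does, and whether sequence near Hfe differs between the groups was not tested. The brightest probe set of Atxn1 gave -0.48 (adjusted p = 0.088) in wild-type duodenum.

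**Figure D5:**
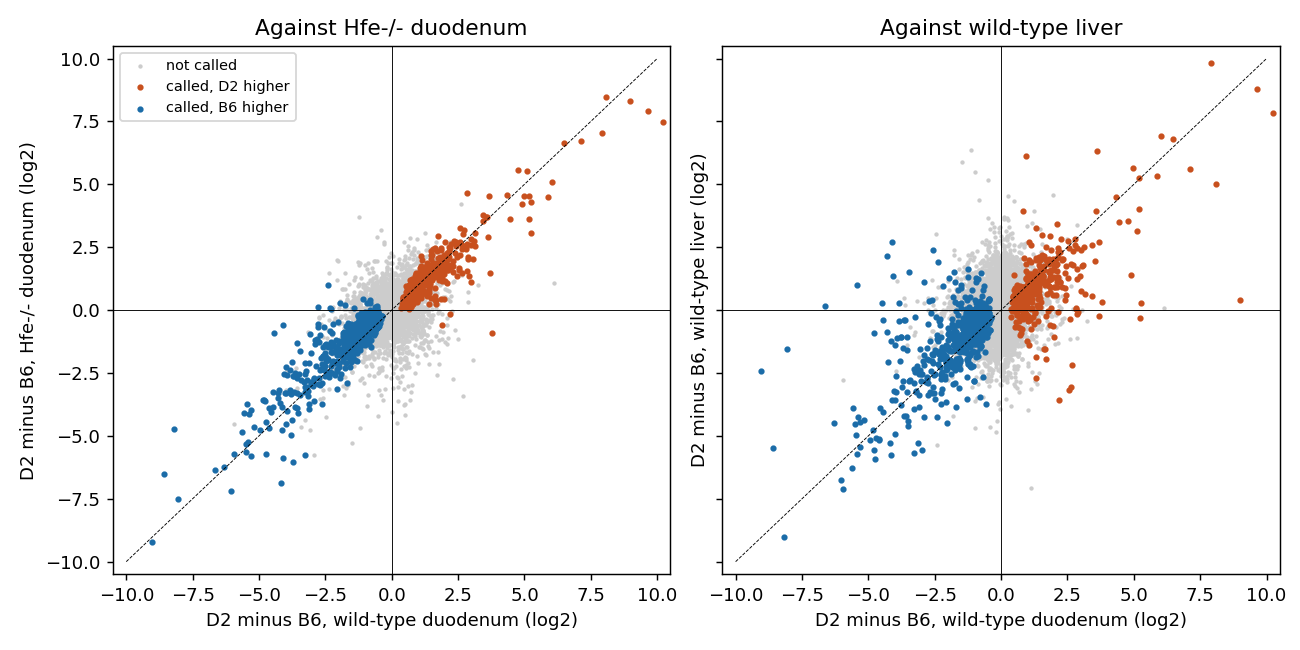
Log2 difference, D2 minus B6, of the called probe sets and of the brightest probe set of every gene. Wild-type duodenum (horizontal axis) is set against Hfe-/- duodenum (left) and wild-type liver (right), with called probe sets coloured by direction. Of the 946 called probe sets, 928 have the same sign in Hfe-/- duodenum and 820 in liver.

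Liver of wild-type mice gave 1222 called probe sets (4.35%), and 653 called genes (5.02%). Of the 433 genes called in duodenum, 351 had the same sign in liver (81.1%). In the same direction 157 were called in both, 36.3% of the duodenal and 24.0% of the hepatic calls, and 2 (Ccl9 and Fuca2) were called in opposite directions. The difference between tissues was called for 193 probe sets over the whole array (0.688%), and for 41 of the 433 genes. The 433 were chosen by their difference on the same duodenum arrays that this test uses. That choice by itself raises their share of tissue differences, so the 2 shares cannot be compared. Ang, with -5.17 in liver, and Alad, with 1.31, are examples of genes that differed between the strains in both tissues.

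Several of the mucosal genes differed between the tissues in their strain contrast. St3gal4 differed by 0.18 in liver, and the difference between tissues was -6.83 (adjusted p = 3.91e-07). Pla2g2a differed by -0.33 in liver, with a tissue difference of 5.57 (adjusted p = 5.48e-05). For Ap1s3 the tissue difference was 2.87 (adjusted p = 0.00061), and for Cd36, at -0.03 in liver, it was 1.78 (adjusted p = 0.00849). Retsat ran the other way in liver, at -0.69, with a tissue difference of 1.22 (adjusted p = 0.000439), and Ccl9 did so too, at 0.99 in liver. Pttg1, by contrast, differed by -3.73 in liver, much more than in duodenum.

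Agreement between probe sets of 1 gene was incomplete. Of the 433 called genes 224 had 405 further measured probe sets, of which 308 had the same sign and 81, in 69 genes, were called in the same direction. In 12 genes a further probe set was called in the opposite direction, Xaf1 and Ppara among them. A further 200 genes had a call in a probe set other than their brightest. On the 6 arrays 10 probe sets had all D2 signals at or above 100 and all B6 signals below 20, and 18 had the reverse. Probes are short and match a reference sequence, and whether a D2 variant lies under a probe was not tested.

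Calls fell on every autosome and on the X chromosome. From 1.58% (chromosome 15) to 5.6% (chromosome 4) of the measured genes of an autosome or the X chromosome were called. Of 430 called genes with a known chromosome, 34 (7.91%) had the next measured gene called as well, 25 of them in the same direction. Over all genes 3.33% were called, so called genes lay next to each other more often than that share. Whether this exceeds what random placing would give was not tested. The densest stretches of 20 measured genes held 7 calls on chromosome 4 and 6 on chromosome 3, where the alcohol dehydrogenases lie.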

How the data were processed

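Total RNA of 12 duodenum and 12 liver samples was hybridised, 1 array per mouse and tissue, to Affymetrix Mouse Genome 430 2.0 arrays. In the deposited data each probe set has 1 MAS5 signal intensity, without detection calls, scaled by the authors to a trimmed mean of 100. MAS5 subtracts mismatch-probe signal, so low values are noisy (smallest 0.0162). The hybridisation time and fluidics station come from the text that was deposited beside each array (other values per the labels of that text). The run is not recorded there. It was inferred from those times, a new run being counted after a gap of more than 30 minutes. The S-score method of the study needs probe-level files, not used here. No column of the tables lacked a sample.

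Signals were taken to log2 without a pseudocount. Probe sets were kept where the third-highest signal over the duodenum or the liver arrays was at least 20, and 64 control probe sets were left out. Of all probe sets 34958 had 1 gene symbol in the platform annotation, 932 several and 9211 none. Where several probe sets read a gene, the brightest one in duodenum stood for it. The 12 duodenum arrays, in 4 groups, were fitted in limma 3.58.1 (R 4.3.3, data.table version 1.17.8) with a trended prior, and p-values were adjusted by Benjamini-Hochberg over 28061 probe sets. The threshold was an adjusted p of 0.01. Liver was fitted alike, and the difference between tissues was taken from a fit over the 12 wild-type arrays of both. That fit took the arrays as independent, although both tissues came from the same mice. Deviations of arrays with the same replicate number correlated at 0.001 to 0.024 between the tissues. Tests are two-sided. Figures were drawn with matplotlib 3.10.9 under Python 3.11.15. The procedure was tested on simulated data, made from the duodenum signals with the means of the 4 groups set equal. Of 200 probe sets changed in a simulated strain contrast, 0 were found among those changed 1.5-fold, 50 at 2-fold and 141 at 4-fold. There were 0 false calls, but unchanged probe sets had a difference of exactly 0 and could not be called. The simulation therefore gives no rate of false calls.

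The 34 gene lists hold 1253 distinct members, of which 931 are on the array and 830 were kept. The comparison, the members and the lists were chosen with earlier results of these data known. Named genes are the 10 largest called differences in each direction with no overlap between strains and, in the higher strain, a mean signal of 100 or more, up to 4 members of each list with the smallest adjusted p, genes the study names, of which only those it names for metal handling in duodenum are described for that reason, and 8 singled out after their values were seen (Adh1, Adh4, Adh5, Adh6a, Alad, Muc4, Guca2a and Gucy2c). Fuca2 and the second Atxn1 probe set were also named after their values were seen. Alternatives were a pseudocount of 16, quantile normalization, other filters and thresholds, no trend, the 6 arrays alone, blocks for replicate number and run, an acinar covariate, a mean over probe sets and leaving out each array. A station block and the joint removal of D2 Hfe-/- arrays 2 and 3 were added after seeing the data. Promoter windows, of 250 bases before to 50 after each start, are from RefSeq.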

Additional observations from a re-analysis of the deposited data

Results flagged for a closer look

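The strain difference itself differed between tissues, by the test of that difference in limma, for 15 of the named genes. All 15 were called in duodenum, on the same arrays that the tissue test uses, which favours larger differences in duodenum than in liver. Given as the duodenal minus the hepatic log2 difference, it was 5.57 for Pla2g2a, 3.49 for Ubd, 3.18 for Pttg1, 2.87 for Ap1s3 and 2.78 for Serpina1b. It was 1.78 for Cd36, 1.22 for Retsat, 1.12 for Ugt2b5, 0.83 for Acadl, 0.81 for Adh5, 0.65 for Rpsa, 0.59 for Mgst1 and 0.54 for Adh1. The value was negative for St3gal4, at -6.83, and for Ccl9, at -2.51.

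Between genotypes the strain difference differed for 1 probe set, of Atxn1, at 2.34 (Hfe-/- minus wild type).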

How the results depend on the processing

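Between wild-type duodena, counts are given as probe sets and then genes, from 946 and 433. An adjusted p of at most 0.05 gave 1780 and 823, the 6 arrays alone gave 616 and 275, the run block 104 and 45, and the station block 483 and 213. A 2-fold minimum left 244 genes. Leaving out 1 array gave 616 to 974 probe sets and 271 to 443 genes, with the lowest values without B6 array 3, and 285 genes without D2 array 1. The pseudocount of 16, quantile normalization, the filters, the acinar covariate, no trend and the added removal of 2 D2 Hfe-/- arrays left these counts within 1.5 times. In Hfe-/- duodenum the count of 1025 probe sets became 2123 at 0.05, 649 with a 2-fold minimum and 650 with the acinar covariate, and leaving out 1 array gave 648 to 1102, with 648, 650 and 665 without D2 array 3, D2 array 2 and B6 array 3. In liver the count of 1222 became 2273 at 0.05, 665 with a 2-fold minimum, 568 with no trend and 545 with the run block. Leaving out 1 liver array gave 753 to 1376, with 790, 753, 759 and 791 without B6 arrays 1 and 2 and D2 arrays 1 and 2. The 193 differences between tissues became 443 with the pseudocount, 599 at 0.05 and 52 with no trend, and 107 to 182 when 1 array was left out, with under 130 without liver arrays 1 or 2 of either strain (120 and 128 in B6, 119 and 107 in D2), duodenal B6 array 3 (111) or D2 array 1 (125). A run block could not be fitted for the tissue difference.

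Replicate numbers did not pair the samples (correlations of deviations 0.116, 0.098 and -0.055 in wild-type duodenum). The replicate block gave 749 probe sets and 336 genes in wild-type duodenum, 847 in Hfe-/- duodenum, 1136 in liver and 153 between tissues. Among the 71 called named genes it ended 7 calls, no trend 17, the 6 arrays alone 12, the run block 55, the station block 27, and quantile normalization 4. Of the named genes 3 changed sign, all uncalled: Cybrd1 and Slc23a2 with the run block, at 0.63 and 0.11, and Tfrc, at -0.024 with the station block and -0.033 without D2 array 1 (up to 0.44 without D2 array 3). With the run block the medians of 12 of the 34 lists changed sign, among them the acinar (0.31 to -0.50), T and NK cell (0.20 to -0.22), stem cell (-0.13 to 0.30) and zinc and copper lists (-0.04 to 0.11). Causes were not tested. With 3 arrays per group and no detection calls, differences of genes near background are the least certain.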
